A study of Mus musculus with 12 samples.

Results

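The mitochondrially encoded genes were described in the hypothalamus, a brain area that sets food intake and energy balance, of mice with experimental diabetes. They were taken as every row of the deposited count table whose Ensembl ID carries a mouse symbol beginning with mt-, which gave 37 of 78334 IDs: 13 messenger RNAs (mRNAs), 2 ribosomal RNAs (rRNAs) and 22 transfer RNAs (tRNAs). All 37 are on mitochondrial DNA. All animals were male C57BL/6 mice. In 3 groups, pups were given 70 mg/kg of streptozotocin (STZ), which kills the beta cells that make insulin, on postnatal day 2, and were fed a high-fat diet with 60% of its energy from fat for 8 weeks from 3 weeks of age. Of these, the curcumin group (n = 3) received 50 mg/kg curcumin, a polyphenol of turmeric, and the garlic group (n = 2) received 200 mg/kg aged garlic extract, both by daily gavage for 28 days. The diabetes group (n = 4) and the control group (n = 3), which was kept on a standard diet, received the vehicle. No STZ is given for control in the labels, so the injection and the diet cannot be told apart in any comparison with control. The treatment started in week 7 of the diet by the protocol and after 11 weeks by the design text, and its timing is therefore unresolved. The age at sampling is not given, nor whether libraries stand for different animals, so the p-values rest on a spread between libraries that may be technical in part.

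Mitochondria keep a small circular genome that codes for core subunits of respiratory chain complexes I, III and IV and of ATP synthase (complex V), and for the rRNAs and tRNAs that translate them inside the organelle. Both strands are transcribed into long precursors, from which the tRNAs are cut out and so release the mRNAs and rRNAs between them. All other respiratory subunits, and the proteins that copy, transcribe and process mitochondrial DNA and RNA, are encoded in the nucleus and imported.

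The tRNA genes that hold most tRNA counts, and a short mRNA that overlaps its neighbour, are shown first because their size and position limit how they can be counted. The sequences are GENCODE M21 transcripts (GRCm38, chromosome MT), written as DNA. In mt-Tn, mt-Tc and mt-Tp, the tRNAs for asparagine, cysteine and proline, capitals mark the anticodon. In mt-Atp8, a subunit of ATP synthase, capitals mark the last 43 bases, which are also the first bases of mt-Atp6.
mt-Tn: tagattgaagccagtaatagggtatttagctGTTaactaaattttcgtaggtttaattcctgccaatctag
mt-Tc: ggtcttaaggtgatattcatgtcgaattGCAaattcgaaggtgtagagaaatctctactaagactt
mt-Tp: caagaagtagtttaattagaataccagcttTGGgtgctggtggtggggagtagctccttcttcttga
mt-Atp8: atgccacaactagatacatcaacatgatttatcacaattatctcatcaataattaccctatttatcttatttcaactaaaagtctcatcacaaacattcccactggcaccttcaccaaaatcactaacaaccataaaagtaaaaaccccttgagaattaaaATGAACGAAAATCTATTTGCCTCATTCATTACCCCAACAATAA
All 22 tRNA genes are 59 to 75 bases long, shorter than 1 read of 150 bases. Of the 37 genes, 28 have the sense of the heavy-strand transcript, and 9 (mt-Nd6 and 8 tRNAs, mt-Tn, mt-Tc and mt-Tp among them) that of the opposite one. The kit keeps strand, but the strand setting of the counting is not given in the sources used here. Reads over a tRNA gene may therefore come from tRNA, from a precursor or from a transcript of the other strand, and counts per gene cannot tell these apart. The libraries were made with a poly-A kit, and how far it captured each class of transcript was not measured. Counts of mRNAs, rRNAs and tRNA genes are therefore not comparable as abundances.

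Libraries held 12950017 to 30271706 counts. Levels are given as CPM, which are counts scaled to a common library size. For single genes this used the TMM method. Sums over gene lists, here and below, were scaled by the total counts of each library alone. A set of 15 hypothalamic marker genes summed to 285 CPM in curcumin replicate 2, against 716 to 5061 CPM in the other 11 libraries. A set of 7 pituitary markers summed to 834 CPM in diabetes replicate 4, where 2 of them were at 0, and to at most 16.1 CPM elsewhere. Results were therefore also computed without these 2 libraries. Thinned to 12950017 counts, libraries held reads for 20917 to 29126 genes in the curcumin group, 33125 to 34719 in the garlic group, 20133 to 22515 in the diabetes group and 25766 to 33157 in the control group, so that diabetes and control did not overlap. In bulk tissue, fewer cells of a type, fewer mitochondria per cell and less RNA per mitochondrion cannot be told apart.

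The mRNAs made up most of the mitochondrially encoded counts in every library. They took 3.23, 5.25 and 3.73% of all counts in curcumin replicates 1 to 3, 4.39 and 6.02% in garlic, 3.70, 4.90, 2.70 and 4.05% in diabetes, and 4.45, 4.45 and 6.13% in control. The groups overlapped, with means of 4.07 ± 1.05% (SD, n = 3) for curcumin, 5.20 ± 1.15% (n = 2) for garlic, 3.84 ± 0.909% (n = 4) for diabetes and 5.01 ± 0.967% (n = 3) for control. The rRNAs took 0.293, 0.929 and 0.709% in curcumin, 0.612 and 1.58% in garlic, 1.20, 1.08, 1.14 and 1.32% in diabetes, and 0.697, 0.659 and 1.26% in control. Here the 4 diabetes libraries lay close together and above all 3 curcumin libraries, while garlic and control overlapped them. The tRNA genes took 0.00590, 0.0120 and 0.0214% in curcumin, 0.0102 and 0.0187% in garlic, 0.0250, 0.0244, 0.0300 and 0.0226% in diabetes, and 0.0124, 0.0154 and 0.0144% in control. Every diabetes library had a larger tRNA share than every other library. Wilson 95% intervals of these shares were at most 0.0109 percentage points to either side, and cover counting error only.

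**Figure D1:**
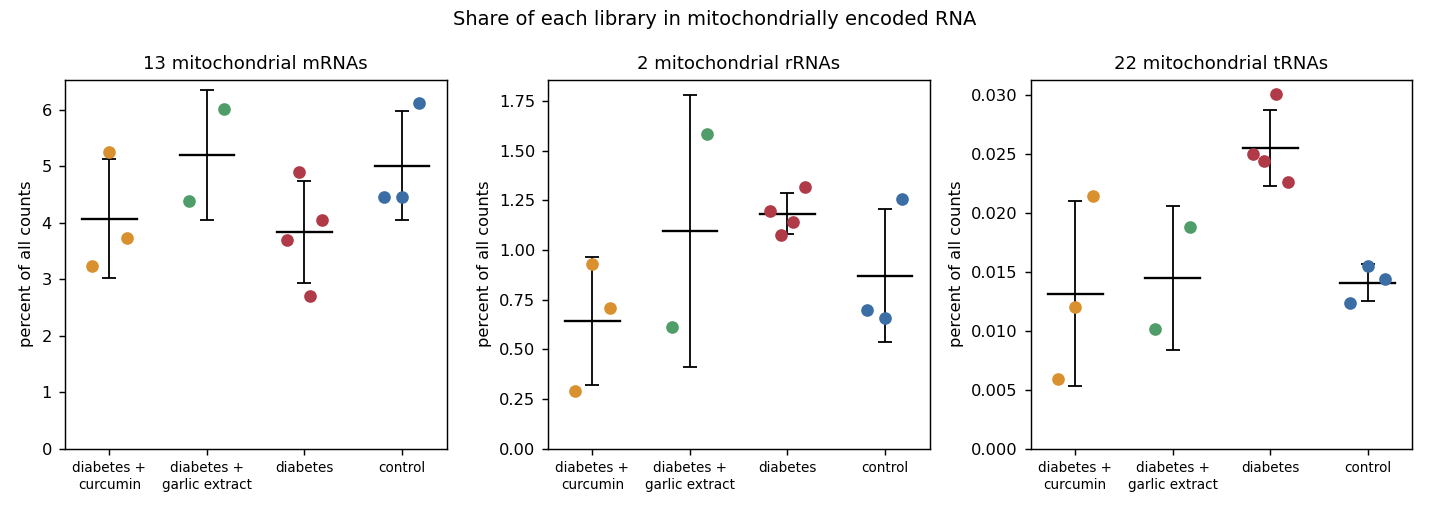
Share of all counts (percent, y axis) in the 13 mitochondrial mRNAs, the 2 rRNAs and the 22 tRNA genes in each library (points) by group, with the group mean (line) and SD (bars). The mRNA shares of the groups overlap, whereas the diabetes tRNA shares (0.0226 to 0.0300%) lie above all others.

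Relative to the mRNAs of the same library, both other classes had more counts in diabetes than in control. There were 9.05, 17.7 and 19.0 rRNA counts per 100 mRNA counts in curcumin, 13.9 and 26.3 in garlic, 32.4, 22, 42.1 and 32.5 in diabetes, and 15.7, 14.8 and 20.5 in control. Each diabetes library thus lay above each control and each curcumin library, and garlic replicate 2 lay inside the diabetes range. The tRNA genes had 0.182, 0.229 and 0.574 counts per 100 mRNA counts in curcumin, 0.232 and 0.312 in garlic, 0.675, 0.497, 1.11 and 0.557 in diabetes, and 0.278, 0.347 and 0.234 in control. Diabetes again lay above all control and garlic libraries, and curcumin replicate 3 reached into its range. These ratios divide sums over the members and were given no test. They also depend on how far the poly-A kit captured each class, which was not measured.

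**Figure D2:**
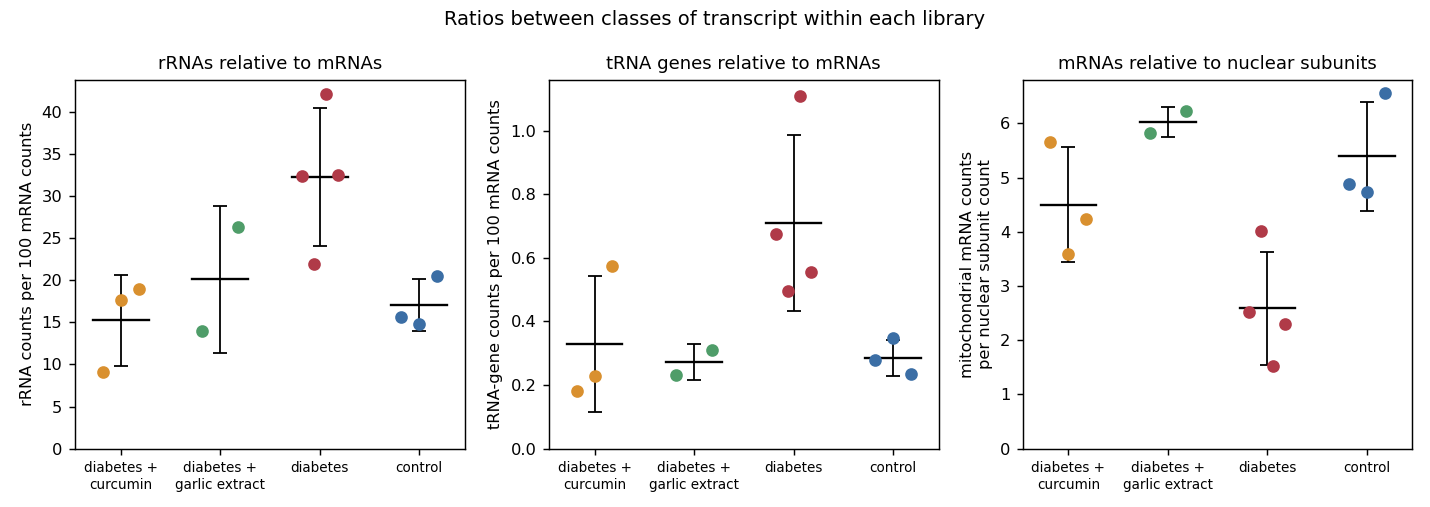
Counts of one class of transcript relative to another within each library (points) by group, with the group mean (line) and SD (bars): rRNA and tRNA-gene counts per 100 mitochondrial mRNA counts, and mitochondrial mRNA counts per count of 74 nuclear-encoded respiratory subunits. Diabetes libraries lie above control in the first panels (22 to 42.1 rRNA counts against 14.8 to 20.5) and below control in the last (1.53 to 4.01 against 4.74 to 6.55).

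Counts differed widely between the genes, which are ranked within each class only. Values are per kilobase of transcript over all 12 libraries. mt-Co1, the catalytic subunit of complex IV, was highest of the mRNAs with 9557 ± 1661 CPM per kb (SD, n = 12). It was followed by mt-Cytb, the mitochondrial subunit of complex III, with 4723 ± 1339, and by the complex IV subunits mt-Co2 with 4566 ± 1131 and mt-Co3 with 4324 ± 880 CPM per kb. mt-Nd1 of complex I (4323 ± 1315) and mt-Atp6 of ATP synthase (3974 ± 1087 CPM per kb) lay within the spread of these. The rRNAs mt-Rnr1 and mt-Rnr2 had 3897 ± 1641 and 3734 ± 1440 CPM per kb. These cannot be ranked against the mRNAs, because capture by the poly-A kit was not measured. The other complex I subunits reached 2917 ± 981 for mt-Nd4, 2298 ± 767 for mt-Nd2, 2018 ± 619 for mt-Nd6, 1349 ± 358 for mt-Nd5, 993 ± 374 for mt-Nd4l and 799 ± 289 CPM per kb for mt-Nd3. mt-Atp8 had the fewest counts of the mRNAs, with 170 ± 106 CPM per kb. It is 204 bases long and shares 43 bases with mt-Atp6, and mt-Nd4l (297 bases) shares 7 with mt-Nd4. How far length and overlap lowered their counts was not tested, so their places may not reflect their levels. The order of the mRNAs also leaves out reads counted for nuclear copies. For mt-Co2, mt-Co3, mt-Atp6 and mt-Nd4l, identical copies held about as many counts (described below). The places of these genes, also relative to mt-Cytb, may therefore be too low. Among the tRNAs, mt-Tp (760 ± 226), mt-Tc (743 ± 534) and mt-Tn (440 ± 388 CPM per kb) led and together held 59.1 to 87.6% of the tRNA counts of a library. The 8 opposite-strand tRNAs held 65.1 to 90.1%. All tRNA genes are shorter than 1 read, so their values per kb do not give levels of tRNA. Of the 22 tRNA genes, 14 averaged at least 1 CPM, and a library had counts for 12 to 21 of them.

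The first question was whether these genes differed between diabetic and control mice. For diabetes against control, 35 members passed the filter on low counts (13 mRNAs, 2 rRNAs and 20 tRNAs; mt-Tf and mt-Tg did not) and 0 of 35 passed edgeR's quasi-likelihood test at an adjusted p of 0.05, where 0.0156% of 25562 genes did. An unadjusted p under 0.05 was reached by 5 members, beside 12.3% of all genes. Of the 35, mt-Tc and mt-Tp were higher in all diabetes libraries than in any control library and mt-Nd5 was lower, so 2 higher and 1 lower, where 5.78% and 8.94% of all genes were, and these shares were near or under the background. DESeq2 called 2 members (mt-Tn and mt-Tc, both higher) among 514 of 25562 genes, and limma-voom 4 (these 2, with mt-Nd4l and mt-Nd5 lower) among 1177.

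Of the mRNAs, 2 of 13 had a log2 change above 0 in diabetes against control and their median was −0.26. For all genes, 45.9% were above 0 and the median was −0.07. The direction of the mRNAs turned round (11 of 13, median 0.35) when the number of detected genes was added to the model as a covariate. Diabetes and control did not overlap in that number, so this fit cannot separate it from the group. Without the covariate, the values ran from −0.92 for mt-Nd4l to 0.34 for mt-Nd3, both of complex I. mt-Nd5, a proton-pumping subunit, had 2319, 1991 and 1960.3 CPM in curcumin, 3197 and 2761 in garlic, 1668, 2733, 1408 and 2107 in diabetes, and 3102, 2752 and 3525 in control. All diabetes libraries were below all control libraries, the nearest being diabetes replicate 2, and the log2 change was −0.66 ± 0.25 (SE; edgeR adjusted p = 0.323). mt-Nd4l, another subunit of the same membrane arm, had 229, 220.1 and 247 CPM in curcumin, 368 and 331 in garlic, 195, 381, 95 and 215 in diabetes, and 430.3, 353 and 472 in control. Diabetes replicate 2 was inside the control range and the other 3 were below it, with a log2 change of −0.92 ± 0.31 (edgeR adjusted p = 0.282). The log2 changes were −0.56 ± 0.29 for mt-Nd4, −0.51 ± 0.31 for mt-Nd2, −0.25 ± 0.32 for mt-Nd1 and −0.20 ± 0.36 for mt-Nd6, all from membrane arm subunits whose groups overlapped. mt-Nd3 differed in sign, with 0.34 ± 0.37.

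The mRNAs of the other complexes also overlapped between the groups. mt-Co1 had 14523, 16131, 10481 and 13310.5 CPM in diabetes and 15111, 14302 and 18557 in control, a log2 change of −0.23 ± 0.27 (edgeR adjusted p = 0.888). The log2 changes were −0.11 ± 0.29 for mt-Co2, 0.18 ± 0.27 for mt-Co3, −0.35 ± 0.30 for mt-Cytb and −0.26 ± 0.28 for mt-Atp6. mt-Atp8 varied most among control libraries, with 31.4, 28.8, 29.1 and 30.0 CPM in diabetes and 33.6, 14.5 and 88.7 in control and a log2 change of −0.61 ± 0.42 (edgeR adjusted p = 0.652). As a share of mitochondrial mRNA counts, complex I subunits held 28.1, 33.2, 29.4 and 32.5% in diabetes and 35.6, 33.4 and 35.4% in control. Complex IV subunits held 55.8, 47.8, 52.9 and 48.3% in diabetes and 46.3, 48.3 and 45.3% in control. The complex I share was thus lower in all diabetes libraries, by a narrow margin between diabetes replicate 2 and control replicate 2, and the complex IV shares met at their edges. Counts of the nuclear copies described below are not in these shares.

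**Figure D3:**
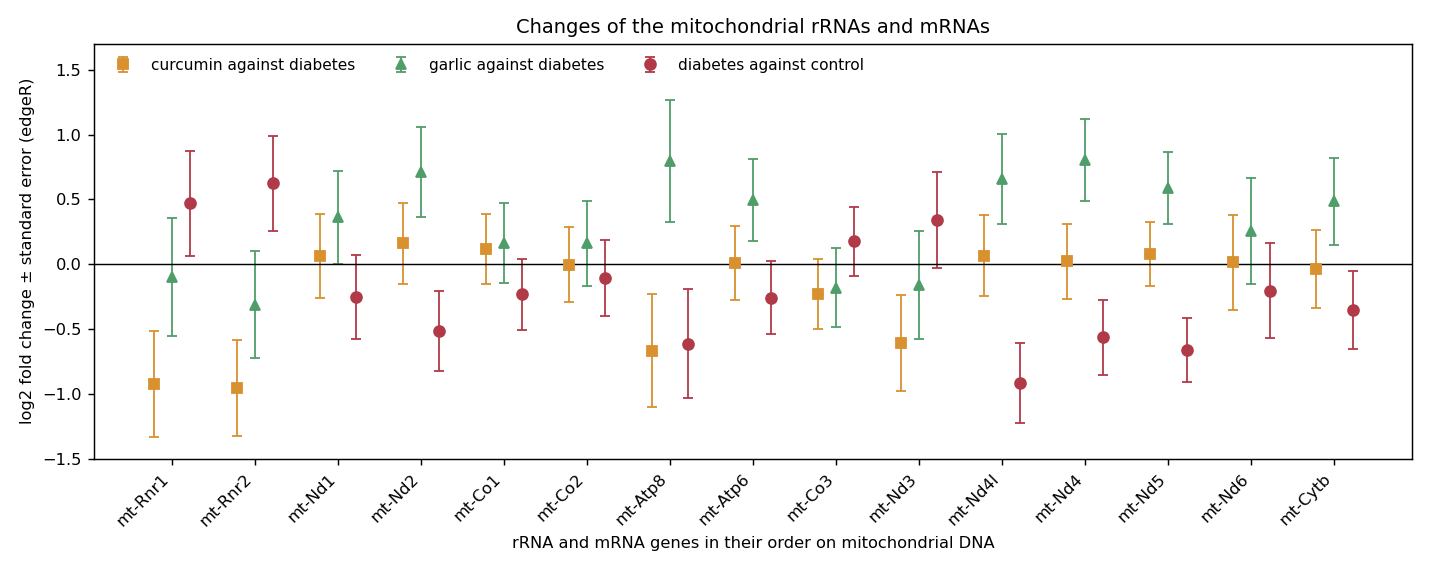
Log2 fold change (y axis; bars are standard errors from edgeR) of each mitochondrial rRNA and mRNA gene, in gene order (x axis), for curcumin against diabetes (squares), garlic against diabetes (triangles) and diabetes against control (circles). None passed an adjusted p of 0.05. The comparisons share the diabetes libraries, so they are not independent of each other.

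The rRNAs had positive log2 changes in diabetes against control, in this fit and with every other scaling tried. mt-Rnr1, the RNA of the small mitochondrial ribosomal subunit, had 987, 4125 and 2230.1 CPM in curcumin, 2329.8 and 6355 in garlic, 4531, 4177, 4852 and 5016 in diabetes, and 2647, 2420.3 and 4988 in control. mt-Rnr2, that of the large subunit, had 1892, 5808 and 4356 CPM in curcumin, 3627 and 8907 in garlic, 8269, 6381, 7981 and 8511 in diabetes, and 4262, 3978 and 6914 in control. In both, control replicate 3 reached the diabetes range and the other 2 control libraries lay well below it. The log2 changes were 0.47 ± 0.41 for mt-Rnr1 (edgeR adjusted p = 0.777) and 0.62 ± 0.36 for mt-Rnr2 (edgeR adjusted p = 0.535). Counts of mt-Rnr2 per 100 counts of mt-Rnr1 were 192, 141 and 195 in curcumin, 156 and 140.2 in garlic, 182, 153, 164 and 169.7 in diabetes, and 161, 164 and 139 in control, and the group ranges overlapped.

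Of the tRNAs tested, 13 of 20 had a log2 change above 0 in diabetes against control, with a median of 0.53. mt-Tc had 12.0, 30.2 and 50.9 CPM in curcumin, 19.1 and 34.0 in garlic, 109.7, 71.5, 122 and 50.1 in diabetes, and 25.2, 43.2 and 21 in control. All diabetes libraries lay above all control and garlic libraries, and the log2 change against control was 1.57 ± 0.42 (edgeR adjusted p = 0.176). mt-Tn had 2.98, 29.3 and 11.6 CPM in curcumin, 11.2 and 20.8 in garlic, 42.5, 25.1, 92.2 and 79.1 in diabetes, and 26.5, 21.3 and 12.4 in control. Here diabetes replicate 2 was inside the control range, and the log2 change was 1.57 ± 0.56 (edgeR adjusted p = 0.309). mt-Tp had 33.1, 39.4 and 55.1 CPM in curcumin, 28.8 and 62.6 in garlic, 55.0, 74.1, 60.4 and 74.1 in diabetes, and 40.7, 39.5 and 48.6 in control. Its diabetes and control libraries did not overlap, with a log2 change of 0.62 ± 0.27 (edgeR adjusted p = 0.371). Among less abundant tRNAs, mt-Tl2 had 6.25, 7.10, 36.7 and 18.1 CPM in diabetes and 7.68, 6.08 and 9.61 in control, mt-Th 11.9, 15.2, 4.35 and 0 in diabetes and 1.31, 6.52 and 1.22 in control, and mt-Te 8.41, 11.5, 3.39 and 2.17 in diabetes and 7.22, 6.85 and 13.9 in control. These overlapped between groups. mt-Tv, which lies between the rRNA genes, had no count in any of 4 diabetes libraries and 0, 0 and 14 counts in control. In diabetes, 3 counts correspond to 0.0991 to 0.232 CPM, here scaled by total counts alone. The level of mt-Tv was thus not detectable at this depth in most libraries.

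**Figure D4:**
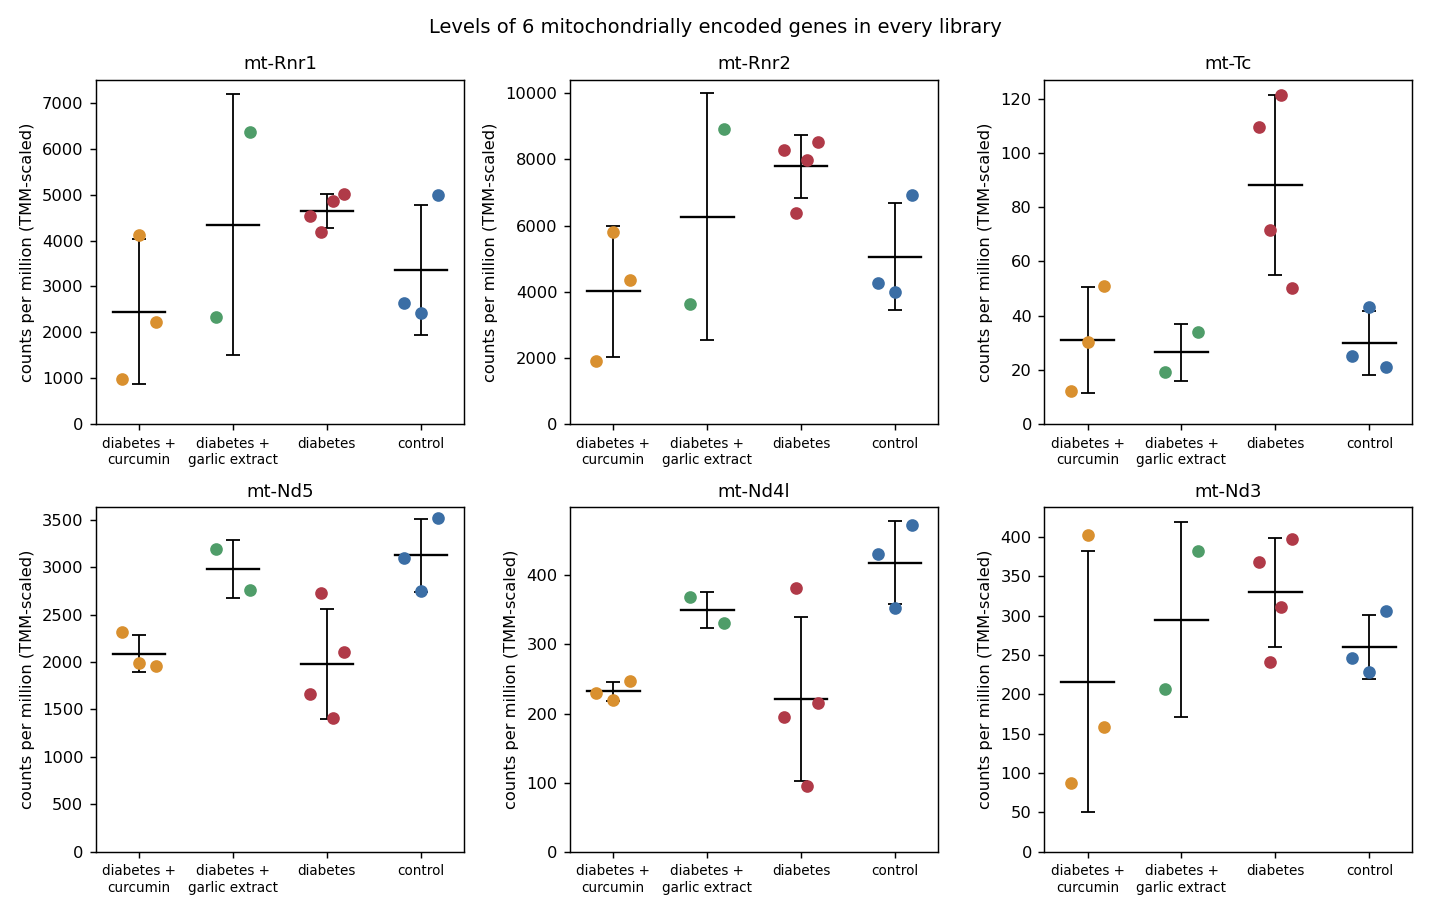
Levels (CPM, TMM-scaled, y axis) of mt-Rnr1, mt-Rnr2, mt-Tc, mt-Nd5, mt-Nd4l and mt-Nd3 in every library (points) by group, with the group mean (line) and SD (bars). The diabetes libraries of mt-Tc (50.1 to 122 CPM) lie above control (21 to 43.2 CPM) and those of mt-Nd5 (1408 to 2733) below control (2752 to 3525), whereas curcumin replicates spread widely for both rRNAs.

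The next question was whether they differed between curcumin-treated and untreated diabetic mice. For curcumin against diabetes, 0 of 35 members passed edgeR's test, where 0.09% of genes did, and 5 had an unadjusted p under 0.05, beside 17.2% of genes. DESeq2 called 2 (mt-Tn and mt-Tc, both lower in curcumin) among 1044 genes, and limma-voom 0 among 123. Of the 35, 3 were lower in every curcumin library than in every diabetes library (mt-Rnr1, mt-Rnr2 and mt-Atp8) and 0 were higher, against 4.19% and 5.43% of all genes. The log2 changes were −0.92 ± 0.41 for mt-Rnr1 (edgeR adjusted p = 0.262) and −0.95 ± 0.37 for mt-Rnr2 (edgeR adjusted p = 0.207). mt-Tn had a log2 change of −2.03 ± 0.57 (edgeR adjusted p = 0.116) and mt-Tc one of −1.51 ± 0.42 (edgeR adjusted p = 0.112), although for each of them 1 curcumin library lay inside the diabetes range. mt-Nd3 had 87.1, 403 and 158 CPM in curcumin and 369, 241, 312 and 397 in diabetes, with a log2 change of −0.61 ± 0.37 (edgeR adjusted p = 0.434). The other mRNAs had small values apart from mt-Atp8: 8 of 13 were above 0, beside 53.1% of all genes, and the median was 0.01, or 5 of 13 and −0.03 with RLE scaling and 1 of 13 and −0.28 with the covariate for detected genes.

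Curcumin replicates 1 and 2 stood at opposite ends of the group for both rRNAs, mt-Nd3 and mt-Tn, as with 987 and 4125 CPM for mt-Rnr1. Without replicate 2, the library with few hypothalamic marker counts, 4 members passed edgeR's test, all lower in curcumin than in diabetes. These were mt-Rnr1 with a log2 change of −1.49 (edgeR adjusted p = 0.0306), mt-Rnr2 with −1.28 (edgeR adjusted p = 0.0454), mt-Nd3 with −1.39 (edgeR adjusted p = 0.0102) and mt-Tn with −2.98 (edgeR adjusted p = 0.00547). That fit called 1975 of 25358 genes in all, against 23 with the library in. Without this library and diabetes replicate 4 together, mt-Tn passed with −2.85 (edgeR adjusted p = 0.0198) and mt-Nd3 with −1.32 (edgeR adjusted p = 0.036), 2 members among 1076 of 24894 genes called.

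For garlic against diabetes, 0 of 35 members passed edgeR's test, as did 0% of all genes, and 4 had an unadjusted p under 0.05, beside 10.9% of genes. Garlic rests on 2 libraries. Of the 35, 8 were higher in both garlic libraries than in all diabetes libraries and 2 were lower, against 13.2% and 7.52% of all genes. The higher ones were the mRNAs mt-Nd2, mt-Nd4, mt-Nd5 and mt-Atp8 and the tRNAs mt-Tv, mt-Tl1, mt-Ts1 and mt-Te, and the lower ones mt-Tn and mt-Tc. Of these, mt-Tv had 1 and 10 counts in garlic and 0 in each diabetes library, so its lack of overlap rests on very few counts. mt-Nd4, a core membrane arm subunit, had 4538 and 6716 CPM in garlic and 3016, 4244, 2146 and 3481 in diabetes, with a log2 change of 0.80 ± 0.32 (edgeR adjusted p = 0.395). The log2 changes were 0.71 ± 0.35 for mt-Nd2, 0.66 ± 0.34 for mt-Nd4l, 0.59 ± 0.28 for mt-Nd5 and 0.80 ± 0.47 for mt-Atp8. In all, 11 of 13 mRNAs were above 0, beside 53.7% of all genes, with a median of 0.49. This became 2 of 13 and −0.69 with the covariate for detected genes. Garlic and diabetes did not overlap in that number either, so the covariate cannot be separated from the group. mt-Tn had −1.90 ± 0.66 (edgeR adjusted p = 0.358) and mt-Tc −1.73 ± 0.49 (edgeR adjusted p = 0.246), whereas the rRNAs had −0.10 ± 0.46 for mt-Rnr1 and −0.31 ± 0.41 for mt-Rnr2. DESeq2 called mt-Tn and mt-Tc, both lower in garlic, among 412 genes, and limma-voom these 2 and mt-Nd4, which was higher, among 429.

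For curcumin against control, 0 of 35 members passed, as did 0% of all genes, and 4 had an unadjusted p under 0.05, beside 2.34% of genes. Of the 35, 6 were lower in every curcumin library (mt-Nd4l, mt-Nd5, mt-Tq, mt-Ty, mt-Ts1 and mt-Tt) with 0 higher, beside 5.84% and 2.82% of all genes. Some of them rest on few counts. In curcumin and control, mt-Tt had 1, 3 and 0 against 4, 5 and 19 counts and mt-Tq 0, 4 and 4 against 14, 24 and 10. For mt-Ts1 the counts were 0, 4 and 0 against 10, 29 and 82. mt-Nd4l had a log2 change of −0.85 ± 0.33 and mt-Nd5 one of −0.58 ± 0.27. Of the mRNAs, 0 of 13 were above 0, beside 49.8% of all genes, which became 8 of 13 with the covariate for detected genes. For garlic against control, 0 of 35 passed, 0 had an unadjusted p under 0.05 and 0 were free of overlap in either direction, beside 0%, 0.11%, and 6.65% higher and 6.11% lower among all genes. Of the mRNAs, 9 of 13 were above 0, beside 49.3% of all genes, which became 0 of 13 with that covariate. For curcumin against garlic, 0 of 35 passed, as did 0% of all genes, and 3 had an unadjusted p under 0.05, beside 1.6% of genes. Of the 35, 9 were lower in every curcumin library with 0 higher, beside 9.91% and 4.21% of all genes. They were mt-Atp8, with 10.7, 28.4 and 17.3 CPM in curcumin and 40.7 and 63.1 in garlic, and mt-Nd4, mt-Nd4l and mt-Nd5. The tRNAs mt-Tq, mt-Tk, mt-Ts1, mt-Ty and mt-Te were the others, some of them on few counts. In curcumin and garlic, mt-Tq had 0, 4 and 4 against 15 and 8 counts and mt-Tk 3, 13 and 13 against 16 and 27. For mt-Ts1 the counts were 0, 4 and 0 against 39 and 65. Of the mRNAs, 0 of 13 were above 0, beside 50.5% of all genes, or 9 of 13 with the covariate. The number of detected genes did not overlap between curcumin and garlic, so that fit cannot separate it from the group. DESeq2 and limma-voom called 0 members in these 3 comparisons.

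Nuclear-encoded subunits of the same complexes, from a list of 74, mostly took values of the opposite sign to the mitochondrial mRNAs in diabetes against control. This opposition was gone with the covariate for detected genes (73 of 74 nuclear subunits and 11 of 13 mRNAs above 0), a fit that cannot separate that number from the group. Of the 74, 72 had a log2 change above 0 and the median was 0.79, beside −0.07 for all genes, 48 did not overlap between the groups, all higher in diabetes, where 5.78% of all genes were, and 0 passed edgeR's test. Complex I contributed 37 of 37 above 0, complex III 9 of 9, complex IV 11 of 11 and complex V 15 of 17. Ndufs8, an iron-sulfur subunit of complex I, had 60.0, 139 and 115 CPM in curcumin, 59.1 and 72.4 in garlic, 176, 157, 259 and 256 in diabetes, and 77.0, 93.4 and 61.8 in control, with a log2 change of 1.45 ± 0.28 for diabetes against control (edgeR adjusted p = 0.0791). Cox4i1, a complex IV subunit, had 359.8, 969 and 561 CPM in curcumin, 394 and 606 in garlic, 1325, 770.5, 2016 and 1486 in diabetes, and 491, 479 and 561 in control (log2 change 1.46 ± 0.34, edgeR adjusted p = 0.125). Neither overlapped between diabetes and control. For curcumin against diabetes 1 of 74 was above 0 (median −0.90), and for garlic against diabetes 4 of 74 (median −0.92), with 0 passing in each.

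Mitochondrial mRNA counts per nuclear subunit count were 5.66, 3.59 and 4.24 in curcumin, 5.83 and 6.22 in garlic, 2.52, 4.01, 1.53 and 2.29 in diabetes, and 4.89, 4.74 and 6.55 in control. All diabetes libraries lay below all garlic and control libraries, and curcumin replicate 2 lay inside the diabetes range. Without that library and diabetes replicate 4, the curcumin ratios also lay above all diabetes ones. Sums over other gene lists are given beside this ratio, and did not follow it in every library. In curcumin replicate 2, neuron markers summed to 4687 CPM, above all diabetes libraries. Neuron markers (10 genes) summed to 3973 to 4687 CPM in curcumin, 3901 to 4967 in garlic, 2903 to 3258 in diabetes and 4158 to 4438 in control, and none of them was at 0 in any library. Blood markers (5 genes) summed to 124 to 471 CPM in curcumin, 118 to 159 in garlic, 247 to 1707 in diabetes and 90.1 to 207 in control. The highest diabetes value was that of replicate 4, and the next was 478 CPM in replicate 2. Nuclear-retained RNAs (8 genes) summed to 7307 to 11368 CPM in curcumin, 10041 to 10997 in garlic, 5190.0 to 11574 in diabetes and 10331 to 13939 in control. Their part in the ratio, and that of the number of detected genes, was not tested.

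The nuclear genes that copy, transcribe and process mitochondrial nucleic acids showed no such common direction. For diabetes against control the 15 replication and transcription genes had a median log2 change of −0.03 with 7 above 0, and the 28 RNA processing and stability genes one of −0.01 with 13 above 0, and 0 passed in either list. Hsd17b10, a subunit of the enzyme that cuts the 5′ end of mitochondrial tRNAs, had 22.6, 34.6 and 18 CPM in curcumin, 22 and 27.4 in garlic, 43.5, 42.4, 60.7 and 53.9 in diabetes, and 24.0, 28.7 and 21.1 in control. Diabetes lay above all other libraries, with log2 changes of 1.03 ± 0.27 against control (edgeR adjusted p = 0.163), −0.999 ± 0.268 for curcumin against diabetes (edgeR adjusted p = 0.105) and −1.02 ± 0.31 for garlic against diabetes (edgeR adjusted p = 0.28). Slirp, which binds and stabilises mitochondrial mRNAs, had 1.18, 10.4 and 1.04 CPM in curcumin, 5.98 and 9.85 in garlic, 27.3, 13.3, 16.1 and 26.9 in diabetes, and 8.23, 6.25 and 11.7 in control (log2 change 1.26 ± 0.62 against control, edgeR adjusted p = 0.422). Tfb2m, a mitochondrial transcription factor, had 4.27, 6.53, 7.83 and 9.92 CPM in diabetes and 11.1, 11.2 and 13.5 in control (log2 change −0.74 ± 0.41, edgeR adjusted p = 0.504). Markers of mitochondrial mass (13 genes) summed to 2436 to 2736 CPM in diabetes and 2471 to 2542 in control.

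Copies of mitochondrial DNA in the nuclear genome bear on the level of several members. In GENCODE M21, 11 annotated genes matched a mitochondrial gene with at least 95% identity over at least 150 bases, 10 of them had counts, and together they held 0.900 to 2.15% of all counts. Of these, 7 lie side by side on chromosome 1. The first 60 bases of mt-Co3 and of its chromosome 1 copy Gm28437 show that reads from one cannot be placed by sequence (0 of 783 bases differ):
mt-Co3: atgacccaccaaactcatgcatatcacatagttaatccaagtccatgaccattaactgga
Gm28437: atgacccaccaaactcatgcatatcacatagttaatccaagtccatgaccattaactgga
A stretch of mt-Co1 and its chromosome 2 copy Gm13340, bases 460 to 519 of each, shows a copy that can be told apart. Capitals mark the 4 bases that differ here, of 37 in 1545:
mt-Co1: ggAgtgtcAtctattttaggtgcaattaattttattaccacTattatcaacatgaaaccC
Gm13340: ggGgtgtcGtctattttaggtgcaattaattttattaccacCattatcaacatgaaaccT

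Counts differed widely between the copies. Per 100 counts of the mitochondrial gene, the identical copies had a median of 102 counts for mt-Co3 (Gm28437; range over 12 libraries 95.1 to 107), 101 for mt-Co2 (Gm28661; 77.7 to 113), 114 for mt-Atp6 (Gm10925; 100.4 to 131) and 101 for mt-Nd4l (Gm10222; 94.8 to 115). These members thus had about as many counts as their copies, whose reads cannot be told apart from theirs, so their levels above may hold only part of their reads. Shorter copies had a median of 23.5 counts per 100 of mt-Co1 (Gm29216, 483 bases, 31.3% of the gene) and 26.5 per 100 of mt-Nd4 (Gm28439, 876 bases, 63.6%), whereas Gm28438, a copy of mt-Nd3 with 99.7% identity, had 0 counts in every library. Gm13340 had 97.4, 77.9 and 60.0 CPM in curcumin, 147 and 279.8 in garlic, 58.5, 50.5, 24.3 and 34.8 in diabetes, and 76.8, 66.9 and 355 in control, with diabetes lowest throughout (log2 change −1.98 ± 0.45 against control, edgeR adjusted p = 0.125). With the copies' counts added, the mitochondrial mRNAs held 5.39% in curcumin, 6.97% in garlic, 5.17% in diabetes and 6.60% in control on average, and as before 2 of 13 mRNAs had a log2 change above 0 for diabetes against control and 8 of 13 for curcumin against diabetes. How reads with several equal positions were counted is not given in the sources used here.

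**Figure D5:**
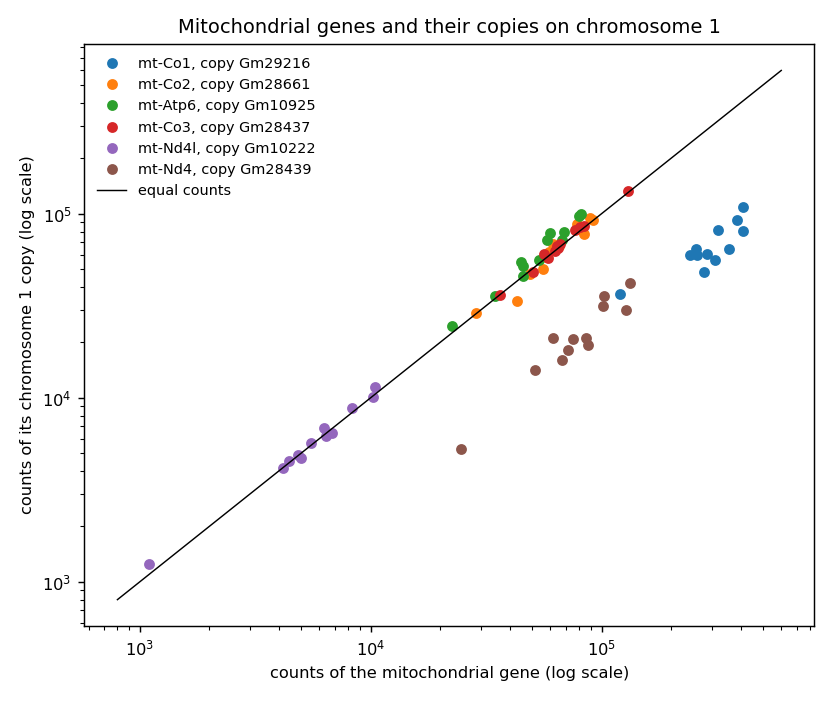
Counts of each chromosome 1 copy (y axis, log scale) against counts of its mitochondrial gene (x axis, log scale); each point is 1 library, colours are gene and copy pairs and the line marks equal counts. The copies of mt-Co2, mt-Atp6, mt-Co3 and mt-Nd4l lie near the line (medians of 101 to 114 per 100), that of mt-Atp6 above it in every library. Those of mt-Co1 and mt-Nd4 lie below it (23.5 and 26.5).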

How the data were processed

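Bulk RNA sequencing of the hypothalamus gave 12 libraries. Per the labels' protocols, Trizol RNA with an integrity number above 7 went into a stranded poly-A kit and paired reads of 150 bases. The authors deposited raw counts per gene, made with FastQC and featureCounts on GRCm39 per the submitters' processing notes. The annotation release and aligner, like the strand setting and the treatment of multiply mapped reads, were not given in the sources used here. GENCODE M21 (GRCm38) and RefSeq names matched 51486 IDs (65.7%, 97.8% of counts), without coordinates, since the builds differ. Groups came from sample titles. Genes were filtered with filterByExpr by group, scaled by TMM and fitted over all 12 libraries with edgeR 4.0.16 (R 4.3.3, glmQLFit and glmQLFTest), adjusted by Benjamini-Hochberg over 25562 genes, threshold 0.05, checked on simulated data. The common dispersion was 0.653. Alternatives used DESeq2 1.42.0, limma 3.58.1, other filters and scalings, a covariate, a replicate block and left-out libraries; adding copies' counts (blastn 2.17.0) was chosen after seeing the data. No pair of libraries agreed within sampling noise (chi-square per degree of freedom at least 22.4). All mRNAs, rRNAs and abundant tRNAs, at most 2 genes per nuclear list by smallest p, and the copies of highest count were named, with others chosen after seeing values (Gm28438 and the other copies, for example). Members and lists were chosen with earlier results of these data known.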

Additional observations from a re-analysis of the deposited data

Results flagged for a closer look

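Among 44 measures of the diabetes group (n = 4), 3 had 1 library far from the others by Dixon's criterion, which chance meets in about 1 of 20 groups. mt-Tq reached 4.24 CPM in diabetes replicate 1, against at most 0.0517 CPM in the other diabetes libraries. mt-Ta reached 2.40 CPM in diabetes replicate 1 and was at 0 in the other 3. mt-Tt reached 1.74 CPM in diabetes replicate 3 and was at 0 in the other 3. All 3 are tRNA genes with few counts.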

How the results depend on the processing

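The count of mitochondrially encoded genes called was 0 of 35 in each of the 6 comparisons. It became, with no low-count filter (50209 genes tested), 3 for diabetes against control (468 genes called in all), 5 for curcumin against diabetes (1128), 3 for garlic against diabetes (356), 1 for curcumin against control (43) and 1 for curcumin against garlic (45), mt-Atp8 in both of these. With DESeq2 it was 2 in each of diabetes against control (514 of 25562 genes called), curcumin against diabetes (1044) and garlic against diabetes (412). With limma-voom it was 4 for diabetes against control (1177 genes called) and 3 for garlic against diabetes (429). Fitting only the groups compared gave 1 for diabetes against control (342 of 20554 genes). For curcumin against diabetes it was 1 with the covariate for detected genes (376 genes called) and 2 without curcumin replicate 2 and diabetes replicate 4 (1076 of 24894). Leaving out 1 library at a time gave 0 to 4 for curcumin against diabetes, the highest without curcumin replicate 2 (1975 of 25358 genes called), and 0 in the other comparisons. The causes were not tested. RLE scaling, library sizes without mitochondrial counts, a stricter filter and the added copies called 0 members in every comparison. Of the single-gene values, 0 that were called changed sign and 346 uncalled ones did, 90 of them with the covariate. Same-numbered libraries did not deviate together (r from −0.179 to 0.252, over 0.1 in 4 of 15 pairs, best with its own number in 7), and a replicate block called 0 members in every comparison. With copies added, the mRNA share was 5.39% in curcumin, 6.97% in garlic, 5.17% in diabetes and 6.60% in control, against 4.07, 5.20, 3.84 and 5.01%. Depth limits the tRNA genes, of which 8 averaged under 1 CPM.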
